A study of Mus musculus with 12 samples.

Results

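The Niban family is a set of 3 mouse genes, *Fam129a*, *Fam129b* and *Fam129c*, whose RNA was measured in whole thyroid by RNA-seq. The members were found by gene name among the 55536 genes of the deposited tables. They were selected on their CPM and log2 fold changes between affected and unaffected mice, which were already known, so the differences between these groups are given for them as a description, with no test. The study asked what distinguishes thyroids with a congenital dysplasia from normal ones. Affected mice (n = 5) were C57BL/6NTac (B6NTac) animals from Taconic with the dysplasia, which the study traced to a LINE-1 retrotransposon inserted in an intron of the thyroglobulin gene *Tg*. Unaffected mice (n = 7) were 6 C57BL/6NCrl (B6NCrl) animals from Charles River and 1 unaffected animal from Taconic, which the methods call a KO without naming the gene. Substrain and disease go together in all mice but that one, so their effects cannot be told apart. The labels give no age, sex, treatment, batch or LINE-1 genotype for these mice, and each library is 1 animal.

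Niban proteins share a pleckstrin homology domain and differ in where they are expressed. *Fam129a* encodes Niban1, which is induced by ATF4 when the endoplasmic reticulum is under stress or amino acids are short, and which is known to act on regulators of translation. *Fam129b* encodes Niban2 (also called MINERVA), a protein of epithelial cell junctions and membranes that is phosphorylated downstream of BRAF and that can bind KEAP1. *Fam129c* encodes Niban3 (also called BCNP1), which is largely restricted to B cells. In the thyroid, follicular cells secrete very large amounts of thyroglobulin, and misfolded thyroglobulin is a known source of endoplasmic reticulum stress.

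The 3 genes lie on different chromosomes of GRCm38, all on the plus strand. *Fam129a* (ENSMUSG00000026483) spans chr1:151571186-151721939, and its longest transcript has 14 exons and 6531 nt, of which 2778 nt are coding. *Fam129b* (ENSMUSG00000026796) spans chr2:32876114-32925254, and its longest transcript has 14 exons and 3714 nt with 2247 coding nt. *Fam129c* (ENSMUSG00000043243) is the most compact, at chr8:71597648-71607936, and its longest coding transcript has 15 exons and 2267 nt with 1773 coding nt. The tables mark *Fam129b* and *Fam129c* as overlapping other genes. *Fam129b* shares 39 bp of exon with *Lrsam1* on the opposite strand, which is 0.835% of its exon sequence. *Fam129c* shares 776 bp, or 21.8% of its exon sequence, with *Pgls* on the same strand, through a single *Pgls* transcript annotated as a target of nonsense-mediated decay. Reads from that stretch cannot be assigned with certainty, and the sources used here do not say whether counting used strand.

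The 60 bases before the first annotated start of each gene are shown because the 3 members stood at very different levels in the same thyroids. They come from the RefSeq promoter table of GRCm38.p6, which held all 3 members under the names Niban1, Niban2 and Niban3, and the capitals mark CG dinucleotides. They cover chr1:151571126-151571185, chr2:32876054-32876113 and chr8:71597588-71597647, plus strand.
Fam129a: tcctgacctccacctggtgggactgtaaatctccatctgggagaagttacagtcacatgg
Fam129b: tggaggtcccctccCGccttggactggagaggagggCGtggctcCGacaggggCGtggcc
Fam129c: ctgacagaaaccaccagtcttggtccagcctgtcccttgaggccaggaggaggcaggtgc
*Fam129b* had 4 CG dinucleotides in this stretch, and the other 2 genes had 0. The stretches are not at like positions. That of *Fam129a* precedes a 509 nt transcript, while its longest transcript and its RefSeq start lie further on, at chr1:151571373. The RefSeq starts of *Fam129b* and *Fam129c* lie closer to their stretches, at chr2:32876134 and chr8:71597708. Over the 250 bases before each RefSeq start the counts were 8 for *Fam129a*, 13 for *Fam129b* and 1 for *Fam129c*, against a median of 6 over 32817 promoters. The GC content of those 250 bases was 57.6%, 61.6% and 60.8%, against a median of 52.4%. The 300-base promoters, which run to 50 bases past the RefSeq start, were searched on both strands for 7 motifs, and none was found in any of the 3. For the ATF4 element core (TGATGNAA) the share of all promoters with a match was 3.97%. It was 1.79% for the CRE (TGACGTCA), 0.676% for the UPRE (TGACGTGG), 0.119% for ERSE (CCAAT and CCACG 9 bases apart) and 0.0366% for ERSE-II (ATTGG and CCACG 1 base apart). It was 12.4% for the ARE core (TGACNNNGC) that NRF2 binds and 0.905% for the motif of the B cell factor EBF1 (TCCC and GGGA 2 bases apart). Motifs could overlap one another.

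*Fam129a* was higher in every affected thyroid than in every unaffected one. Its CPM (counts scaled to library size by TMM factors) was 159, 189, 207, 186 and 136 in affected replicates 1, 3, 4, 5 and 6. In unaffected replicate 14, from Taconic, it was 39.5, and in B6NCrl replicates 21 to 26 it was 43.1, 44.2, 42.5, 33.9, 34.5 and 32.3. The groups did not overlap, and the lowest affected mouse was 3.09-fold above the highest unaffected one. The log2 fold change was 2.19 ± 0.11 (SE), a fold of 4.55. Of the 19661 genes tested, 3.78% had every affected mouse above every unaffected mouse, and *Fam129a* ranked 97 from the top by log2 fold change, both of which are part of how the family came to be chosen.

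*Fam129b* overlapped between the groups and was uneven among affected mice. Its CPM was 72.5, 127, 129, 107 and 75.0 in affected replicates 1, 3, 4, 5 and 6. It was 89.3 in unaffected replicate 14 and 82.1, 89.4, 102, 92.2, 81.1 and 73.8 in replicates 21 to 26. Replicates 3, 4 and 5 of the affected group were above all unaffected mice, while replicate 1 was below all of them and replicate 6 was below all but replicate 26. The log2 fold change was 0.23 ± 0.15 (SE), and it was 0.14 without affected replicate 3, 0.15 without replicate 4 and 0.12 with library totals without *Tg*. The coefficient of variation was 26.7% among affected and 10.3% among unaffected mice.

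*Fam129c* was near the floor of the data in all mice but 1. Its estimated counts were 63.4, 19.3, 14, 17 and 23 in affected replicates 1, 3, 4, 5 and 6. In unaffected replicates 14 and 21 to 26 they were 13, 16, 16.4, 18, 7.41, 11.6 and 12. The exact Poisson 95% interval of the count, which covers counting error only, was 48.4 to 80.6 for affected replicate 1. That interval lay above the intervals of all other mice, which ran from 2.81 at the lowest to 34.5 at the highest. In CPM, affected replicate 1 stood at 2.76, the other affected mice at 0.723 to 1.27 and the unaffected mice at 0.371 to 1.09. The log2 fold change was 0.79 ± 0.36 (SE), and it was 0.27 without affected replicate 1. All 3 members passed the filter on low counts.

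**Figure D1:**
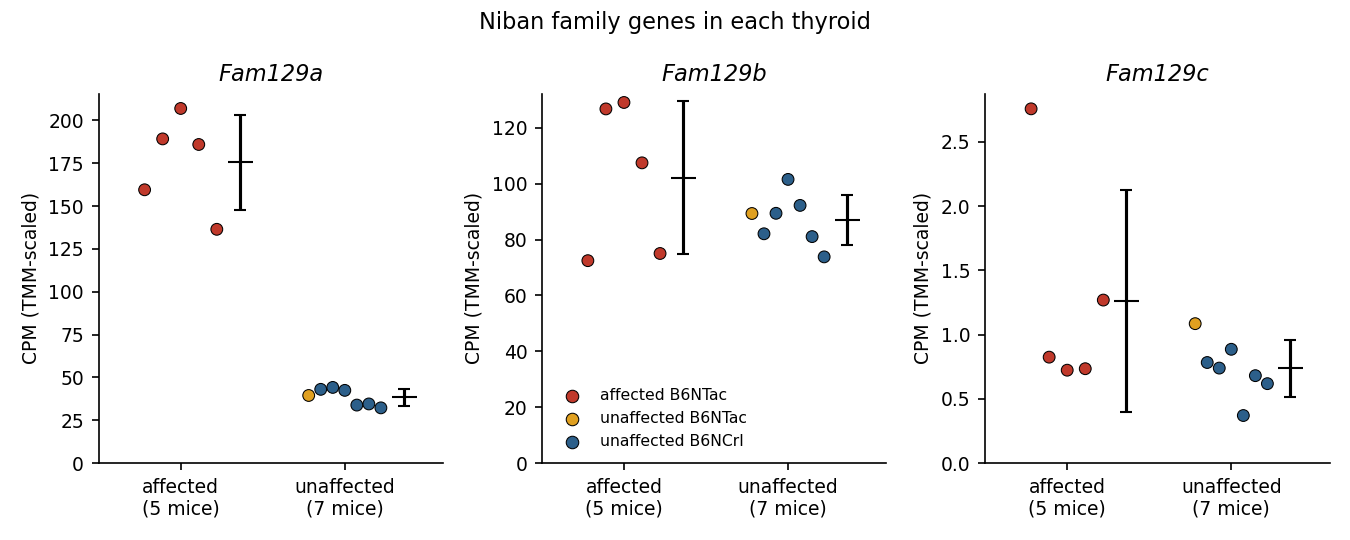
CPM of *Fam129a*, *Fam129b* and *Fam129c* in each of the 12 mice (points, coloured by substrain and disease), with the mean and SD of each group beside the points and vertical axes that start at 0. *Fam129a* separates the groups, *Fam129b* overlaps, and *Fam129c* stands out in 1 affected mouse at 2.76 CPM.

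The single unaffected Taconic mouse is the only one that has the vendor of the affected mice without the disease. Its *Fam129a* level of 39.5 CPM lay within the B6NCrl range of 32.3 to 44.2. Its *Fam129b* level of 89.3 CPM also lay within the B6NCrl range, which was 73.8 to 102. Its *Fam129c* level of 1.09 CPM was above the B6NCrl range of 0.371 to 0.886, at 13 estimated counts in the library with the lowest total. With 1 animal, no test of vendor was possible.

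Levels of different genes were compared per length, as FPKM (fragments scaled to transcript length and library size). In the unaffected thyroid the order was *Fam129b*, then *Fam129a*, then *Fam129c*, and this order held in each of the 7 mice. The mean was 24.8 ± 2.35 FPKM (SD, n = 7) for *Fam129b*, 6.51 ± 0.676 for *Fam129a* and 0.518 ± 0.292 for *Fam129c*. On the log2(FPKM + 0.1) scale *Fam129b* was above *Fam129a* by 1.91 ± 0.13 (SD), *Fam129a* above *Fam129c* by 3.52 ± 0.52, and *Fam129b* above *Fam129c* by 5.44 ± 0.51. Each of these 3 differences was in the same direction in 7 of 7 mice and larger than its SD between mice. No p is given, since the CPM of these mice was among the values that chose the members.

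In affected thyroids the first 2 members stood side by side. *Fam129a* was at 28.9, 33.9, 33.1, 32.4 and 20.8 FPKM in replicates 1, 3, 4, 5 and 6, and *Fam129b* at 22.1, 37.99, 35.6, 30.5 and 19.2 FPKM. The difference of *Fam129b* over *Fam129a* on the log2(FPKM + 0.1) scale was -0.06 ± 0.22 (SD, n = 5), with *Fam129b* higher in 2 of 5 mice. *Fam129c* stayed the lowest in all 5 mice, at 0.404 to 1.74 FPKM. The ratio of *Fam129a* to *Fam129b* was 0.891 to 1.31 in affected mice and 0.231 to 0.306 in unaffected mice. *Fam129a* supplied 46.7 to 54.8% of the family's summed FPKM in affected mice and 18.6 to 23.1% in unaffected mice. The sum itself was 59.8 ± 13.0 FPKM (SD, n = 5) in affected and 31.8 ± 2.96 (SD, n = 7) in unaffected mice.

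**Figure D2:**
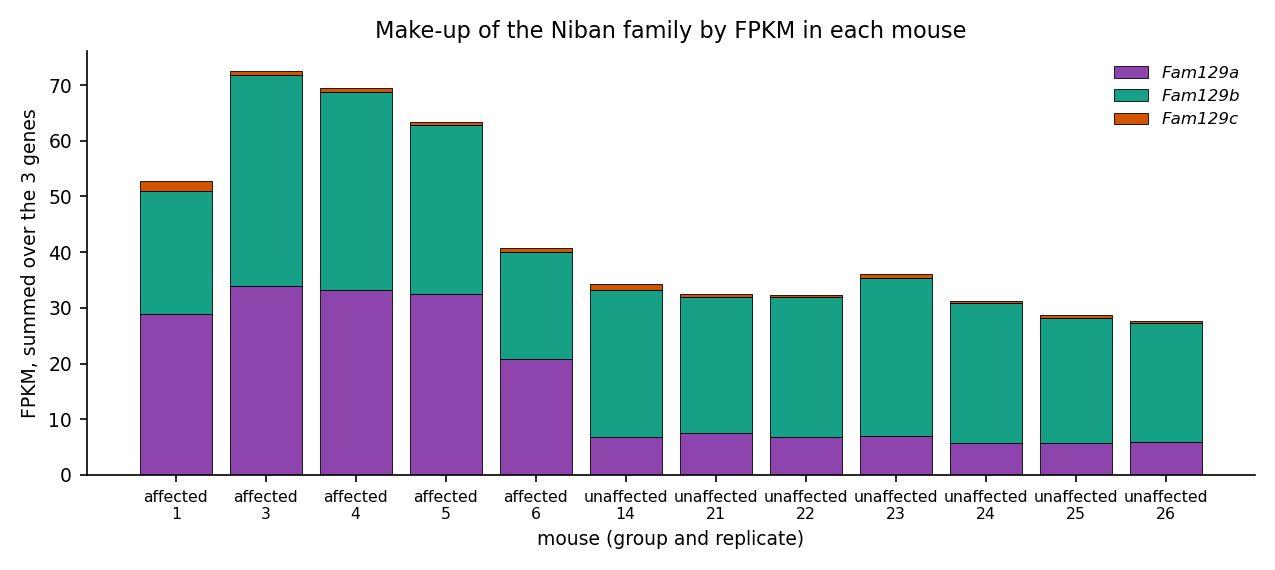
Stacked bars give the FPKM of *Fam129a*, *Fam129b* and *Fam129c* in each of the 12 mice, named by group and replicate, from 0 upwards. *Fam129a* is about as tall as *Fam129b* in affected mice (ratio 0.891 to 1.31) and much shorter in unaffected mice (0.231 to 0.306), and *Fam129c* is a thin top layer throughout.

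The counts and the FPKM together give the transcript length that the authors' quantification assigned to each gene. For *Fam129a* this length was 5691 to 6052 bp in affected and 5489 to 6290 bp in unaffected mice, so the groups overlapped and all mice were near the 6531 nt of the longest transcript. For *Fam129b* it was 3452 to 3599 bp and 3439 to 3577 bp, near the 3714 nt of its longest transcript. For *Fam129c* it varied from 876 to 1806 bp in affected and from 1017 to 1960 bp in unaffected mice, on few counts.

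The tissue itself differed between libraries, and this touches all 3 members. Library totals were 11434901 estimated counts in unaffected replicate 14 and 18103710 to 23319948 in the other mice. A list of 14 thyroid follicular markers summed to 101600 to 257600 CPM in affected and 211800 to 305800 CPM in unaffected mice, nearly all of it *Tg*, and no marker was at 0 in every mouse. Affected replicates 1 and 6 were the lowest, with *Tg* at 100500 and 119100 CPM, and they were also the lowest affected mice for *Fam129a* and *Fam129b*. Without *Tg*, the gene that carries the insertion, the marker sums were 1104 and 1145 CPM in affected replicates 1 and 6. They were 2175 to 2340 CPM in the other affected mice and 1717 to 2552 CPM in unaffected mice. Without replicate 1 the log2 fold change was 2.21 for *Fam129a* and 0.33 for *Fam129b*, and without replicate 6 it was 2.27 and 0.33. Skeletal muscle markers summed to 35570 CPM in affected replicate 6 and to 20.4 to 1695 in the other affected mice, and to 9.43 to 15780 in unaffected mice. Adipose markers summed to 1585 CPM in affected replicate 1 and to at most 633 in the other mice of that group, against 176 to 411 in unaffected mice. Smooth muscle markers summed to 158 to 1441 CPM in affected and 166 to 869 in unaffected mice, endothelial markers to 647 to 822 and 664 to 914, and C cell markers to 1426 to 5731 and 2564 to 5438. Parathyroid markers ran from 29.5 to 4317 CPM in affected and from 1807 to 3426 in unaffected mice. Macrophage markers summed to 263 to 427 CPM in affected and 102 to 248 in unaffected mice, with 4 of 9 higher, where 7.63% of all genes were higher and 6.1% lower in the same edgeR fit (quasi-likelihood test, Benjamini-Hochberg adjusted p of 0.05). Without *Lyz2* the macrophage sums overlapped, at 153 to 245 CPM and 74.3 to 184 CPM. Fibroblast markers summed to 683 to 1088 CPM in affected and 476 to 705 in unaffected mice, with 3 of 6 higher, beside the same 7.63%. Squamous epithelium markers ran from 17.4 to 129 CPM in affected mice, highest in replicates 4 and 3, which also had the most *Fam129b*, and from 24.0 to 74.9 in unaffected mice. The part of these cell types in the members' values was not tested, and in bulk tissue fewer cells of a type and less RNA per cell cannot be told apart.

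*Fam129a* was next set beside *Atf4*, its partner factors and genes known to lie under them. Of 31 such genes (*Atf4* included, *Fam129a* left out), 30 were tested, and 18 were higher in affected mice while none was lower. Over all genes, 7.63% were higher and 6.1% lower in the same edgeR quasi-likelihood fit at a Benjamini-Hochberg adjusted p of 0.05. The median log2 fold change of the list was 0.84, against 0.01 over all genes. At an unadjusted p of 0.05 the counts were 21 higher and 0 lower, and DESeq2 gave 20 higher and 0 lower. Over all genes DESeq2 called 2059 higher and 1506 lower, more than the 1500 and 1199 of the edgeR fit. The same DESeq2 background holds for the lists below, and the share of all genes at an unadjusted p is not given. Of the 30 genes, 16 had every affected mouse above every unaffected one, beside 3.78% of all genes.

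The largest changes of the list were in secreted and regulatory stress genes. *Gdf15*, a secreted stress cytokine, rose by 3.86 ± 0.49 (log2, SE) with an adjusted p of 0.000572 (edgeR). *Atf3*, a transcription factor induced by ATF4, rose by 3.50 ± 0.48 (adjusted p = 0.000876). *Ddit3*, which encodes the pro-apoptotic factor CHOP, rose by 2.61 ± 0.28 (adjusted p = 0.00017), and *Trib3*, a pseudokinase that binds AKT, by 2.57 ± 0.27 (adjusted p = 0.000131). *Atf3* and *Ddit3* are marked in the tables as overlapping another gene. *Atf4* itself went from 57.1 CPM in unaffected to 102 CPM in affected mice, a log2 fold change of 0.84 ± 0.12 (adjusted p = 0.000799). The log2 fold change of *Fam129a* was smaller than that of 7 of these 30 genes and larger than that of 23. Each of these 5 named genes stayed past the threshold in all 21 alternative analyses.

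**Figure D3:**
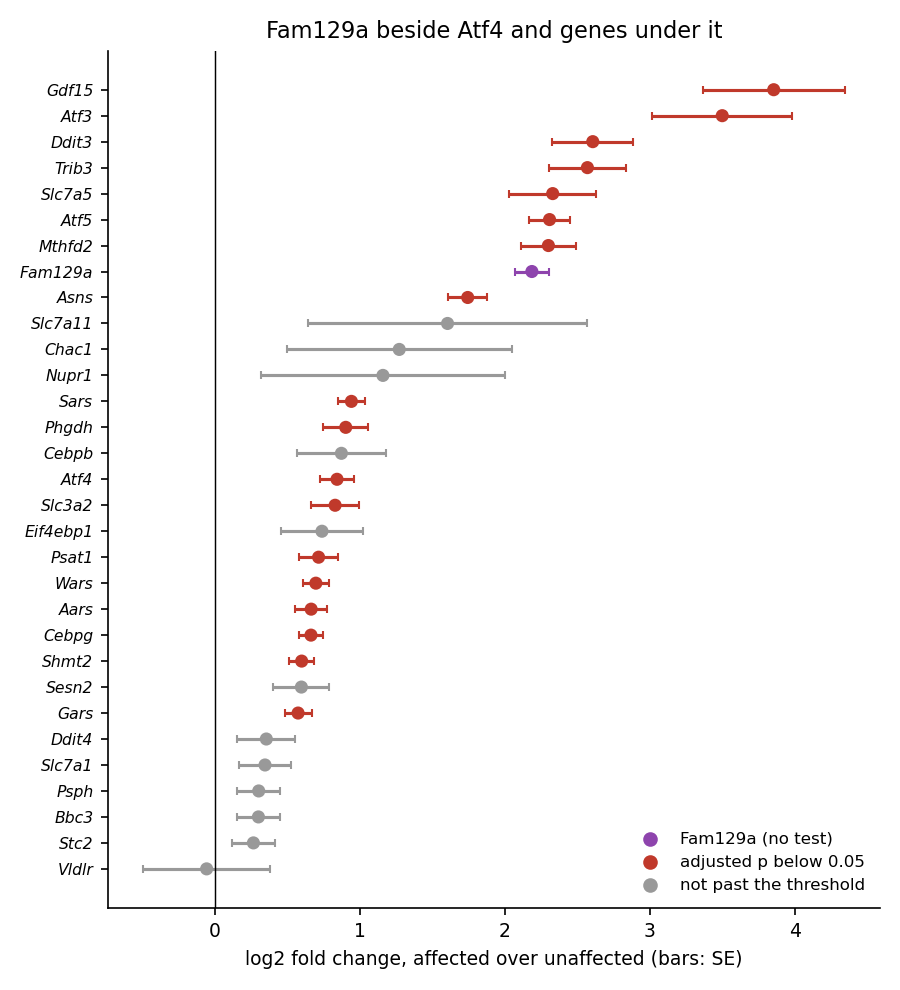
Log2 fold changes of affected over unaffected mice with their SE, for *Atf4*, its partner factors and the genes under them (30 genes). Red marks an adjusted p below 0.05, and *Fam129a* is in purple (no test). *Fam129a* sits at 2.19 among the higher genes, with 7 of the 30 above it.

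By mouse, the mean log2 CPM of the list was 4.93, 5.37, 5.05, 5.27 and 4.91 in affected replicates 1, 3, 4, 5 and 6. It was 3.74 in unaffected replicate 14 and 3.56 to 4.18 in the B6NCrl mice. Affected replicates 6 and 1, the lowest in this list, were also the lowest affected mice in *Fam129a*. The highest affected mouse was replicate 3 for the list and replicate 4 for *Fam129a*.

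Upstream of ATF4, the 12 genes for eIF2 alpha, its kinases, its exchange factor and its phosphatase subunits changed little. In this list 2 were higher and 1 was lower, or 25.0% of the list, and the median log2 fold change was 0.09. Over all genes 7.63% were higher and 6.1% lower. *Ppp1r15a*, the stress-induced phosphatase subunit GADD34, rose by 0.82 ± 0.16 (log2, SE, adjusted p = 0.00572, edgeR), and it is marked as overlapping another gene. *Eif2s1*, which encodes eIF2 alpha, rose by 0.26 ± 0.07 (adjusted p = 0.0361). *Eif2ak4*, the amino acid sensor GCN2, fell by 0.22 on the log2 scale (SE 0.06, adjusted p = 0.0305). *Eif2ak3*, the endoplasmic reticulum sensor PERK, had 52.1 and 42.7 CPM and an adjusted p of 0.207. *Ppp1r15a* was called in all 21 alternative analyses, while *Eif2s1* was called in 4 and *Eif2ak4* in 8. With affected replicate 3 or 5, or unaffected replicate 14, 24, 25 or 26 left out, *Ppp1r15a* was the only gene of the list called.

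Regulators of translation and mTORC1, on which Niban1 is known to act or beside which it lies, were read in the same way. Of 17 genes 3 were higher and none was lower, or 17.6% of the list, with a median log2 fold change of 0.04. Over all genes 7.63% were higher and 6.1% lower, and 3 calls in a list this short are not read as a result about it. At an unadjusted p of 0.05 the edgeR fit gave 5 higher and 0 lower, and DESeq2 called 4 higher and 0 lower. *Deptor*, an inhibitor of mTOR, rose by 0.36 ± 0.09 (log2, SE, adjusted p = 0.0202, edgeR), *Rps6*, a ribosomal protein phosphorylated by S6 kinase, by 0.29 ± 0.08 (adjusted p = 0.024), and *Rheb*, the GTPase that activates mTORC1, by 0.16 ± 0.04 (adjusted p = 0.0273). *Deptor* and *Rheb* are marked as overlapping another gene. *Rps6kb1*, which encodes S6 kinase, had a log2 fold change of 0.04 ± 0.06 (adjusted p = 0.743). With affected replicate 5 left out 0 of the 17 were called, and with unaffected replicate 26 left out 1 was called. With library totals without *Tg* in place of TMM factors 0 were called. Over the 21 alternatives *Deptor* was called in 19, *Rps6* in 13 and *Rheb* in 12.

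The route by which Niban1 has been described to act after ultraviolet light runs through AKT, nucleophosmin, MDM2 and p53. Of 11 genes of this route and of p53 targets, 4 were higher and none was lower, beside 7.63% higher and 6.1% lower over all genes, with a median log2 fold change of 0.10. At an unadjusted p of 0.05 the counts were 4 higher and 1 lower, and DESeq2 gave 4 higher and 0 lower. *Cdkn1a*, the cell cycle inhibitor p21, rose by 2.05 ± 0.18 (log2, SE, adjusted p = 6.66e-05, edgeR). *Ccng1*, a p53 target, rose by 1.01 ± 0.23 (adjusted p = 0.0127), *Bax*, which promotes apoptosis, by 0.58 ± 0.12 (adjusted p = 0.00678), and *Mdm2*, which targets p53 for degradation, by 0.36 ± 0.08 (adjusted p = 0.0134). *Cdkn1a* and *Bax* are marked as overlapping another gene. With library totals without *Tg* in place of TMM factors *Bax* and *Mdm2* were no longer called, which left 2 of the 11, and *Mdm2* was also not called by limma without a filter. The mRNAs of the proteins at the head of the route had small differences that did not pass, with log2 fold changes of 0.10 for *Akt1*, -0.14 for *Npm1* and -0.07 for *Trp53*.

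For *Fam129b* the corresponding lists were the BRAF to ERK cascade and the KEAP1 to NRF2 pathway. Of 13 cascade and feedback genes 2 were higher and none was lower, or 15.4% of the list, beside 7.63% higher and 6.1% lower over all genes, with a median log2 fold change of -0.02. This share is near the background and is no result about the list. At an unadjusted p of 0.05 the edgeR counts were 4 higher and 1 lower, and DESeq2 called 4 higher and 1 lower. *Etv5*, a transcription factor gene induced by ERK, rose by 1.36 ± 0.17 (log2, SE, adjusted p = 0.000487), and *Dusp6*, the ERK phosphatase, by 0.55 ± 0.09 (adjusted p = 0.00149). *Braf* had 134 CPM in affected and 136 CPM in unaffected mice. With affected replicate 4 left out the list had 3 higher and 1 lower.

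Of the 12 genes of the KEAP1 to NRF2 list 7 were higher and none was lower, beside 7.63% higher and 6.1% lower over all genes, with a median log2 fold change of 0.59. At an unadjusted p of 0.05 the counts were 7 and 0, as they were by DESeq2. *Hmox1*, which degrades heme, rose by 1.68 ± 0.19 (log2, SE, adjusted p = 0.000222, edgeR). *Srxn1*, which repairs oxidised peroxiredoxins, rose by 1.38 ± 0.26 (adjusted p = 0.00493), *Gclm*, of glutathione synthesis, by 0.70 ± 0.14 (adjusted p = 0.00572), and *G6pdx*, which supplies NADPH, by 0.68 ± 0.11 (adjusted p = 0.00176). *Gclm* and *G6pdx* are marked as overlapping another gene. *Keap1* and *Nfe2l2*, the gene of NRF2, had log2 fold changes of 0.11 and 0.15 that did not pass. *Slc7a11* is on this list and on that of *Atf4*.

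*Fam129c* was read against 15 B cell markers, of which 6 passed the filter and 0 were called, with 1 higher and 0 lower at an unadjusted p of 0.05 (edgeR) and 0 called by DESeq2. Their summed level was 224 CPM in affected replicate 1, 11.9 to 13.6 CPM in the other affected mice and 16.3 to 36.9 CPM in unaffected mice. The mouse with by far the most *Fam129c* was thus the mouse with by far the most B cell marker RNA, and no marker of the list was at 0 in every mouse. Affected replicate 6, the next highest in *Fam129c* at 1.27 CPM, had the lowest B cell sum, at 11.9 CPM. Among the unaffected mice the one with the highest *Fam129c* was replicate 14, with B cell markers at 27.8 CPM, below the 36.9 CPM of replicate 21. Replicates 14 and 21 also held the most T cell and thymocyte markers, at 688 and 512 CPM, against 3.75 to 60.7 CPM in the other mice. The plasma cell markers were at 102 to 237 CPM in affected and 26.8 to 54.5 CPM in unaffected mice, and 1 of 6 tested was higher (over all genes 7.63% were). That gene was *Derl3*, which also acts in endoplasmic reticulum-associated degradation, at 85.7 to 208 CPM in affected and 3.14 to 12.8 CPM in unaffected mice. Without *Derl3* the plasma cell markers summed to 130.5 CPM in affected replicate 1, to 16.7 to 34.0 CPM in the other affected mice and to 23.6 to 46.9 CPM in unaffected mice, so only replicate 1 lay above the unaffected range. The level of *Pgls*, which shares exon sequence with *Fam129c*, was 26.3 CPM in affected replicate 1, 20.2 to 26.3 CPM over the affected group and 17.4 to 22.3 CPM over the unaffected group. The part of B cells and of *Pgls* reads in the *Fam129c* values was not tested.

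**Figure D4:**
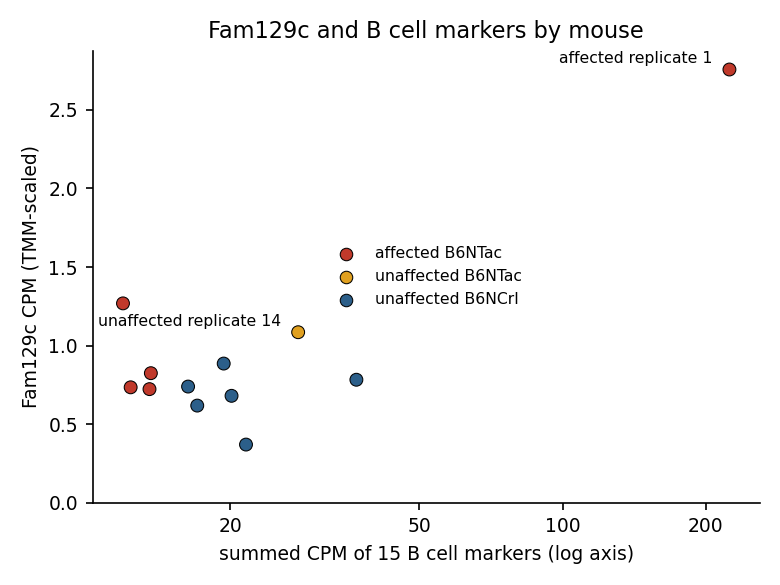
*Fam129c* in CPM (vertical axis, from 0) against the summed CPM of 15 B cell markers (horizontal log axis) in the 12 mice. Affected replicate 1 lies alone at the upper right, at 2.76 and 224 CPM, and the other 11 mice lie together at the lower left.

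Of the genes beside the members 5 were read, with 0 calls in the edgeR fit and 2 at an unadjusted p below 0.05. DESeq2 called 2 of them, *Edem3* and *Pgls*. Over all genes the edgeR fit called 7.63% higher and 6.1% lower, and DESeq2 called 2059 genes higher and 1506 lower. With 5 genes, these counts are no result about the neighbours. Around *Fam129a*, *Rnf2* had a log2 fold change of -0.02 ± 0.08 (SE, adjusted p = 0.916, edgeR). *Edem3*, a mannosidase of endoplasmic reticulum-associated degradation whose gene starts 33431 bp after *Fam129a* ends, had 0.35 ± 0.11 (adjusted p = 0.0548). Beside *Fam129b*, *Lrsam1* had 0.19 ± 0.10 (adjusted p = 0.258). Around *Fam129c*, *Pgls* had 0.25 ± 0.08 (adjusted p = 0.0621) and *Colgalt1* 0.05 ± 0.05 (adjusted p = 0.631).

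The genes most like each member among mice of the same group were found by the correlation of deviations of log2 CPM from the group mean, over 12 mice and 15526 genes (15527 for *Fam129c*). All genes of a mouse share its library, depth and tissue make-up, which differed between mice. The correlations are descriptions, and the genes named are the highest of a long list. For *Fam129b* the closest were *Krt18*, a keratin of simple epithelia (Pearson r = 0.949, Spearman rho = 0.909), *Met*, the receptor of hepatocyte growth factor (0.942, 0.888), *Klf6*, a transcription factor (0.94, 0.881), *Serpinb8*, a protease inhibitor (0.94, 0.93), and *Gm42467* (0.933, 0.916), which is marked as overlapping another gene. In all, 22 genes had an r of at least 0.9. Leaving out affected replicates 1 and 6, the mice farthest from the median of *Fam129b*, the 5 values were 0.889, 0.906, 0.859, 0.868 and 0.843. Between the groups *Krt18* rose by 1.32 ± 0.21 (log2, SE, adjusted p = 0.00157, edgeR) and *Klf6* by 0.92 ± 0.18 (adjusted p = 0.00611), while *Met* had a log2 fold change of -0.28 ± 0.11 (adjusted p = 0.12).

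**Figure D5:**
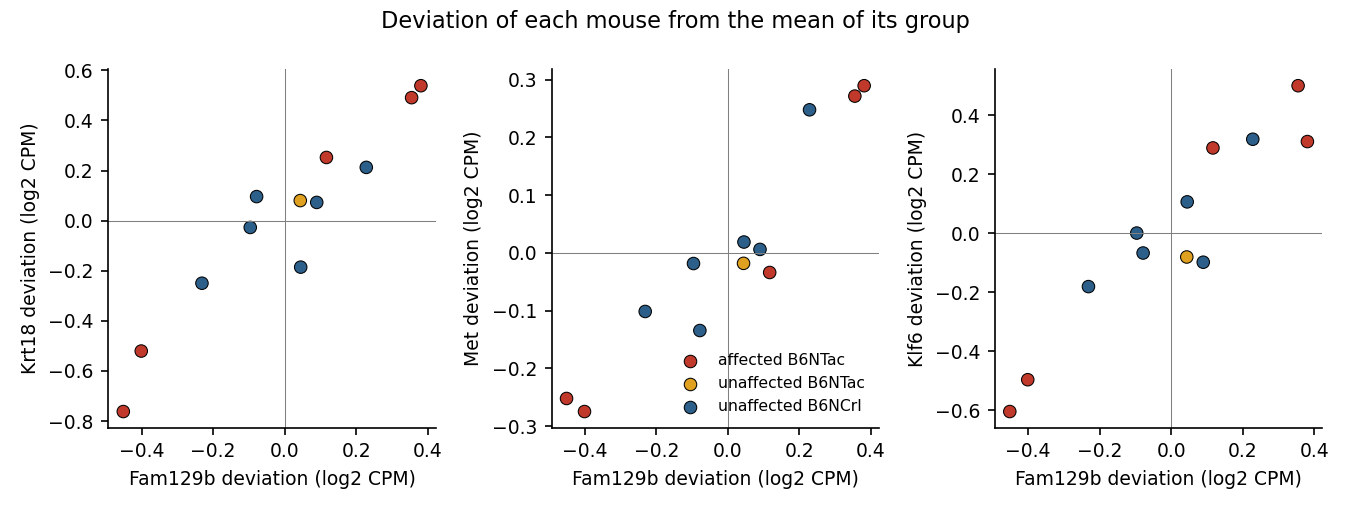
Each point is 1 of the 12 mice, placed by the deviation of *Fam129b* (horizontal) and of *Krt18*, *Met* or *Klf6* (vertical) from the mean log2 CPM of its group. Affected replicates 1 and 6 lie at the lower left and replicates 3 and 4 at the upper right, and r over the 12 mice was 0.949, 0.942 and 0.94. Within the affected mice r was 0.992, 0.97 and 0.974, and within the unaffected mice it was lower, at 0.699, 0.846 and 0.755.

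For *Fam129a* the values were lower, and 0 genes had an r of at least 0.9. The closest were *Trmt10b*, a tRNA methyltransferase (r = 0.873, rho = 0.867), *Arhgap1* (0.846, 0.762), *Glce* (0.835, 0.748), *Anapc2* (0.83, 0.867) and *Olfr90* (0.808, 0.825), and *Glce* is marked as overlapping another gene. Without affected replicate 6 and unaffected replicate 26 the 5 values of r were 0.809, 0.73, 0.654, 0.774 and 0.794. The adjusted p of these 5 genes between the groups was 0.493 to 0.991 (edgeR). No gene of the *Atf4* list was among them, which with 5 genes named of 15526 is no result about that list. For *Fam129c* the closest were *Gm43283* (r = 0.911, rho = 0.874), *Dnajc15* (0.911, 0.867), *Gm38211* (0.898, 0.804), *Agmo* (0.897, 0.881) and *Cdc42ep3* (0.894, 0.769), on few *Fam129c* counts. *Gm43283*, *Gm38211*, *Agmo* and *Cdc42ep3* are marked as overlapping another gene. Without affected replicate 1 and unaffected replicate 24 these fell to 0.812, 0.813, 0.788, 0.851 and 0.752.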

How the data were processed

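Total RNA of 12 thyroids was depleted of ribosomal RNA, made into libraries with the KAPA RNA HyperPrep kit and sequenced on an Illumina instrument. Per the study's methods, reads were aligned and quantified in OmicSoft Array Studio against a GRCm38 genome with an Ensembl annotation, and whether counting used strand is not given in the sources used here. The authors deposited gene-level estimated counts, which are not normalized, and gene-level FPKM. The deposited exon length column was not used for tests.

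Members were matched by gene name, and groups came from the sample labels. Estimated counts were rounded to whole numbers, filtered with filterByExpr (minimum count 10), scaled by TMM factors and fitted with edgeR 4.0.16 (robust quasi-likelihood test, all 12 mice, Benjamini-Hochberg over all 19661 genes, threshold 0.05). Alternatives used DESeq2 1.42.0 and limma 3.58.1 on log2(FPKM + 1) and log2(FPKM + 0.1), keeping genes whose FPKM averaged 0.5 or more, or all genes. CPM was computed on the TMM scale and likeness on log2 CPM with a prior count of 2. Intervals cover counting error only. The fit was also run on simulated counts with known answers, drawn gene by gene from its own means and dispersions. Those counts held none of the tissue differences described above, so they do not show how the fit handles them.

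The members, the 6 pathway lists, the 13 marker lists and the tests were chosen with earlier results of these data known. From each pathway list up to 4 genes with the largest absolute log2 fold change among those past the threshold were named, and for each member the 5 genes with the highest correlation among those with an average log2 CPM of at least 1. *Atf4* and genes named without a call (*Eif2ak3*, *Rps6kb1*, *Akt1*, *Npm1*, *Trp53*, *Braf*, *Keap1*, *Nfe2l2*) were named in addition for their place in the pathways, and *Derl3* and *Lyz2* after their values were seen. Loci come from the GENCODE annotation of GRCm38 and promoter sequences from RefSeq. Protein sequences were not used here, and 1 neighbouring gene is not reported here. Nothing says that the mice came from separate litters or extraction days. The p-values set the difference between the groups against the spread between these animals only, and they cannot separate disease from substrain.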

Additional observations from a re-analysis of the deposited data

Results flagged for a closer look

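In a group of 4 to 10 mice, a sample whose gap to its nearest neighbour took up more of the group's range than Dixon's 95% critical value was marked, which chance does in about 1 of 20 groups. *Fam129c* in affected replicate 1 was far above the other affected mice, at 2.756 CPM against 1.269 for the next, and at 1.74 FPKM against 0.786. The summed CPM of the B cell markers was far from the others in the same mouse, at 224.1 against 13.63. *Pgls* was apart in unaffected replicate 22, at 22.28 CPM against 19.45 for the next.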

How the results depend on the processing

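The log2 fold change of *Fam129a* was 2.02 to 2.27 over 21 alternatives, that of *Fam129b* 0.12 to 0.33 and that of *Fam129c* 0.27 to 0.95, all positive. The lowest value of *Fam129c* was without affected replicate 1 and the highest without affected replicate 4. The order of levels in unaffected mice held under all alternatives run. With library totals without *Tg* in place of TMM factors, the median over all genes moved to -0.13, and 604 genes were higher and 1709 lower, against 1500 and 1199. With upper-quartile factors the split was 1149 and 1510.

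Genes called over all genes numbered 2699, 1339 by limma on log2(FPKM + 1) without a filter, and 1774 to 3390 with 1 mouse left out, lowest without affected replicate 5. Of the genes upstream of ATF4, 3 were called, 1 with library totals without TMM, without a filter, with only B6NCrl controls and in the 3 limma fits, and 1 to 4 with 1 mouse left out. Of the translation and mTORC1 genes, 3 were called, 1 with library totals without TMM, with upper-quartile factors and by limma without a filter, 0 with library totals without *Tg*, and 0 to 4 with 1 mouse left out. Of the AKT and p53 list, 4 were called, and 2 with library totals without *Tg*. Of the BRAF to ERK list, 2 were called, 5 by DESeq2, and 2 to 4 with 1 mouse left out. The *Atf4* and NRF2 lists stayed within 1.5 times their counts in all alternatives. The causes of these shifts were not tested, beyond the fewer genes or mice of the settings themselves. No paired analysis was possible because affected and unaffected mice share no replicate number. Depth limits *Fam129c*, with 7 to 63 counts a library.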
